A study of Mus musculus with 48 samples.

Results

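The subunits of the mitochondrial respiratory chain were examined in hippocampal CA tissue of male mice by RNA-sequencing. Members are the genes named Nduf (series a, b, c, s and v), Sdha to Sdhd, Uqcr, Cox4 to Cox8 and Atp5, with names ending in -ps left out. The rule found 84 of the 24421 genes in the table, and 81 of them reached 10 counts in at least 24 libraries, beside 15048 genes of the whole table that did so. By complex, these were 36 of 37 genes of complex I, 4 of 4 of complex II, 8 of 8 of complex III, 16 of 18 of complex IV and 17 of 17 of complex V. The rule itself uses names and a count minimum and no difference between groups.

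The study compared mice that lack the cannabinoid receptor CB1 in a class of neurons with their littermates. For the Glu-CB1 mice, nex-cre was crossed to CB1f/f, so that the floxed allele was deleted in glutamatergic neurons. For the GABA-CB1 mice, dlx5/6-cre was crossed to CB1f/f, so that it was deleted in GABAergic neurons. Each library is 1 mouse of 8 weeks by the labels, either basal (home cage) or after exposure to an open field. Glu-CB1-WT and Glu-CB1-KO gave 5 and 7 basal libraries and 5 and 7 open field libraries, and GABA-CB1-WT and GABA-CB1-KO gave 6 and 6 basal and 7 and 5 open field libraries. These are the labels' sizes, and the study's text gives those of the GABA-CB1 open field groups the other way round. CA tissue holds many cell types, so that a change in a class of neurons is diluted by the RNA of the others, and fewer cells of a type cannot be told apart from less RNA per cell. As a check of the labels, *Cnr1*, the gene of CB1, was compared first: in each line and state its highest KO value lay under its lowest CB1-WT value. The log2 fold changes were between -0.72 and -1.45, with an adjusted p of at most 1.70e-05 (edgeR's quasi-likelihood test).

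The respiratory chain passes electrons from NADH and succinate to oxygen and pumps protons across the inner mitochondrial membrane. Complex I (NADH dehydrogenase), complex III (cytochrome bc1) and complex IV (cytochrome c oxidase) pump protons, complex II (succinate dehydrogenase) feeds electrons into the chain, and complex V (ATP synthase) uses the proton gradient to make ATP. Neurons depend on this supply for ion pumping and synaptic transmission. Most subunits are encoded in the nucleus, and several subunits of complexes IV and V have copies that differ in the tissues where they are used. The subunits encoded in the mitochondrial genome were not analysed here, since none of their 13 symbols is in the table.

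Promoter windows of the members are given first, because the members share letters there that the rule did not use. Of the 81 members, 64 matched the RefSeq promoter table (GRCm38.p6), in 69 windows from 250 bases before to 50 bases after a start. The 17 others included Ndufa4l2, Sdhc, Uqcrb, Cox4i1, Cox4i2, Cox6a2 and Atp5sl. Letters for NRF1 (GCGCANGCG), the nuclear respiratory factor, were searched on both strands and stood in 20 of 69 member windows (28.99%) and in 6.25% of all 32851 windows. Those for YY1 (AAGATGGCG) stood in 7 member windows (10.1%) and in 1.40% of all, and those for the estrogen related receptor ERR (TCAAGGTCA) in 2 (2.90%) and in 0.423% of all. Letters for GABP, an ETS factor (CCGGAAGT), stood in 5 (7.25%) and in 3.89% of all, and those for Sp1 (GGGCGG) in 27 (39.1%) and in 35.7% of all. The median GC content was 57.3% in member windows and 52.7% in all windows, and the median number of CpG (C followed by G) was 19 and 7. The letters for NRF1, YY1, GABP and Sp1 are rich in G and C, and each of them holds CpG. A match is a description of the letters, not a binding site.

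The 250 bases before the start are printed for 5 members, with matches to any of these letters in capitals. *Cox6a1* and *Sdha* are shown for their 3 NRF1 matches each, of which the first 2 in *Cox6a1* overlap, and *Atp5g3* for its ERR match. *Cox7a2* and *Cox7a1* are shown as the abundant and the scarce copy of the same subunit.
Cox6a1, chr5:115348959-115349208, minus strand: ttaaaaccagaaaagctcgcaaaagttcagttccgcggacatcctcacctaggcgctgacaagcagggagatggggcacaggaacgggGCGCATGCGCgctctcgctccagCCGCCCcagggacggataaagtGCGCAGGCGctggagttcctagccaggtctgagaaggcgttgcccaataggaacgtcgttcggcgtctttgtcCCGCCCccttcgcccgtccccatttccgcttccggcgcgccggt
Sdha, chr13:74350241-74350490, minus strand: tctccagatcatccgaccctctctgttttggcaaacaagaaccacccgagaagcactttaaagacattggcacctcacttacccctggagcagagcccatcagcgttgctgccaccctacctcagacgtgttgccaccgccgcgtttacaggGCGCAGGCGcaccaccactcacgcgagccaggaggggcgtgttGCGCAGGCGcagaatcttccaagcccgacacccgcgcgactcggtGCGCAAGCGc
Atp5g3, chr2:73911327-73911576, minus strand: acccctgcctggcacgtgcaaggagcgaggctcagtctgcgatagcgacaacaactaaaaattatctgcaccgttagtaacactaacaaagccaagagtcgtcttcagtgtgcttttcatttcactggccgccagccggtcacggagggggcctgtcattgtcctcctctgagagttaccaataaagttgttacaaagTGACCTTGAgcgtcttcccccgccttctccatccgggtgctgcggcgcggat
Cox7a2, chr9:79759854-79760103, minus strand: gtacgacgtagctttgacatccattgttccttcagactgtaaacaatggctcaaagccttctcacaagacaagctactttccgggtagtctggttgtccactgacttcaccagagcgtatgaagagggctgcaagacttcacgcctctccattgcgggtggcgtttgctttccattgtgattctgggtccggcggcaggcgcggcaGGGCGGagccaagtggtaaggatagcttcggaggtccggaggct
Cox7a1, chr7:30183921-30184170, plus strand: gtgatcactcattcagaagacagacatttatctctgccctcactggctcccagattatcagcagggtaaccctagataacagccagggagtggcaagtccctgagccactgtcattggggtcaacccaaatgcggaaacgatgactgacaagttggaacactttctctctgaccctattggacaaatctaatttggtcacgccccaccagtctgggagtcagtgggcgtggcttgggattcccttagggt
The window of *Cox7a1* holds none of these letters, and its 300 bases hold 7 CpG, compared with 20 for *Cox7a2* and 32 for *Cox6a1*.

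Respiratory chain subunits were among the abundant messages of CA tissue. Levels are given per length as TPM, counts scaled for the exon length of the gene and for the library total, which allows genes to be compared with each other. The median member stood at 257 TPM (middle 50% from 123 to 421 TPM), and the median of all 15048 genes at 24.98 TPM. Of the 81 members, 65 reached 100 TPM and 10 stayed under 10 TPM. Together the members took between 0.752% and 0.873% of the counted reads of a library.

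**Figure D1:**
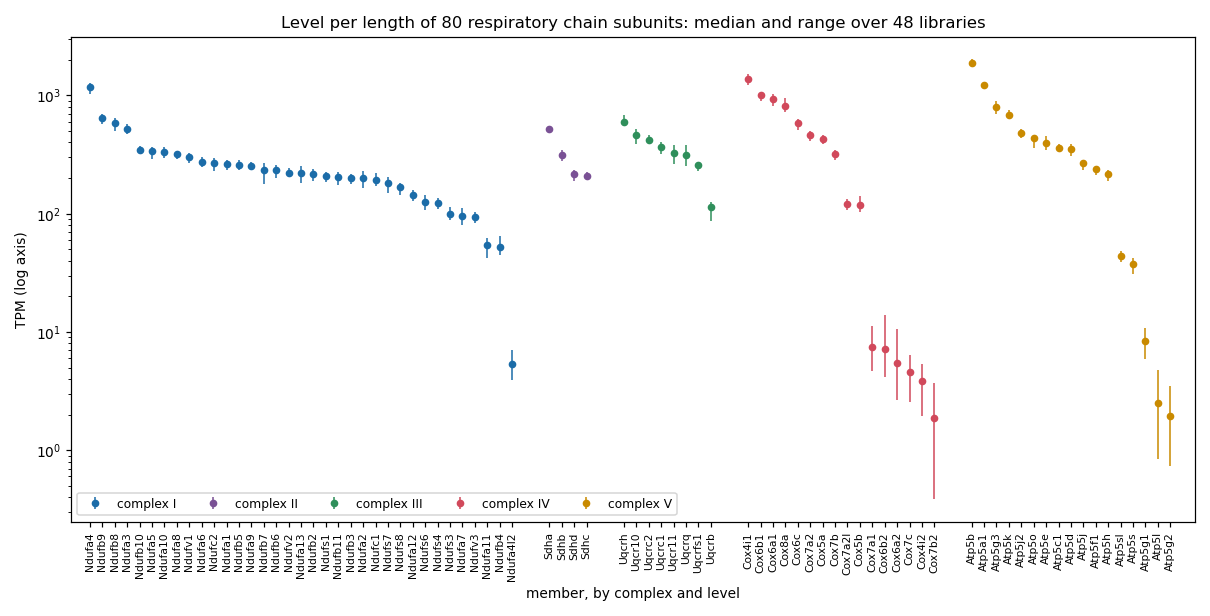
Level per length (TPM, log axis) of 80 of the 81 members by complex; points are medians and lines the range over 48 libraries. Most lie at 100 TPM or more, and 10 (6 of complex IV, 3 of complex V and 1 of complex I) lie under 10 TPM.

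In complex I, the median of 36 members was 221 TPM. *Ndufa4*, a subunit first assigned to complex I and found in complex IV, was highest with 1168 TPM (range over libraries 1028 to 1273), and its copy *Ndufa4l2* was lowest with 5.32 TPM. The 4 subunits of complex II had a median of 265 TPM. *Sdha*, the flavoprotein, was highest with 524 TPM. *Sdhb*, the iron-sulfur subunit, stood at 314 TPM, and the membrane anchors *Sdhc* and *Sdhd* stood at 208 and 217 TPM. In complex III, the median of 8 members was 347 TPM, with *Uqcrh* (the hinge protein) highest at 600 TPM and *Uqcrb* lowest at 113 TPM. In complex IV, the median of 16 members was 221 TPM, from *Cox4i1* at 1383 TPM to *Cox7b2* at 1.88 TPM. In complex V, the median of 17 members was 354 TPM. *Atp5b*, the catalytic beta subunit, had the highest level of all members (1871 TPM, rank 20 of the table), and *Atp5g2* was lowest of complex V with 1.96 TPM.

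Where a subunit has several copies, CA tissue used mainly the general copy. *Cox4i1* made up a median of 99.7% of the Cox4i TPM in a library, *Cox6a1* 99.4% of Cox6a, *Cox6b1* 99.3% of Cox6b, *Cox7b* 99.4% of Cox7b, *Cox8a* 99.9% of Cox8 and *Ndufa4* 99.5% of its pair with *Ndufa4l2*. *Cox4i2*, a copy known from lung and low oxygen, stood at 3.86 TPM. The heart and muscle copies *Cox6a2* and *Cox7a1* stood at 5.41 and 7.53 TPM, and the testis copies *Cox6b2* and *Cox7b2* at 7.12 and 1.88 TPM. In the Cox7a family, *Cox7a2* held 78.2%, *Cox7a2l*, which takes part in joining complexes into supercomplexes, 20.5%, and *Cox7a1* 1.26%. *Cox5a* and *Cox5b* are different subunits rather than copies, and stood at 430 and 119 TPM. The c-ring of ATP synthase is made from 3 genes for the same mature protein. Of their TPM, *Atp5g3* held 98.7%, *Atp5g1* 1.03% and *Atp5g2* 0.245%. The shares of all 3 are uncertain, since *Atp5g1* has windows in common with 366 other genes and *Atp5g2* is described in the next paragraph. Of the windows of *Atp5g1*, 88.9% are its own, but these are 4881 windows beside 868 counted exon bases. These shares varied little, and the lowest share of the main copy in any library was 98.4% for *Atp5g3*, 99.6% for *Cox4i1* and 99.0% for *Cox6a1*.

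The members near the count minimum were *Cox7b2* (10 counts in 24 libraries, between 2 and 17 counts), *Atp5g2* (35 libraries) and *Atp5l* (36 libraries). Below it were *Cox8b*, the muscle copy of Cox8, with at most 9 counts in a library, *Cox8c*, the testis copy, with 1 count in all libraries together, and *Ndufs5*, with no count in any library. In the deposited gene models, 95.1% of the exon bases of *Ndufs5* are shared with *BC002163* on the same strand. Several members share sequence with other genes. Of the windows of 50 bases (the read length) in their coding transcripts, 31.5%, 63.3% and 77.0% were found in no transcript of a gene elsewhere in GENCODE for *Atp5l*, *Atp5g2* and *Cox7c*, which stood at 2.51, 1.96 and 4.55 TPM. The share was between 56.8% and 77.5% for *Uqcrb*, *Ndufb4*, *Atp5h*, *Ndufs3*, *Ndufa12* and *Atp5f1*, which stood at 113, 52.2, 215, 100.3, 143 and 237 TPM. The windows cover all coding transcripts of a gene in GENCODE, which can reach beyond the counted exons. *Atp5g2* had 1622 windows, 596 of them shared, beside 647 counted exon bases. The shares within the counted exons were not computed, and the part found nowhere else can be lower there. How the counting treated reads from shared sequence was not tested, and levels of these members are uncertain. Exons of *Ndufa13*, *Atp5j*, *Uqcrc2*, *Atp5f1* and *Cox6a2* overlap exons of another gene on the opposite strand over 10.5% to 27.5% of their bases.

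Between mice of a group, the members varied little. The median coefficient of variation within groups was 4.82% for the 81 members, 7.35% for all 15048 genes and 5.01% for the 3789 other genes within the middle 50% of the members' levels (33.1 to 107 CPM, counts scaled to the library size with TMM factors). It was lowest in complex II (median 3.33%), and the highest of any member was 36.6% for *Cox7b2*. Deviations of members from their group means moved together over the 48 mice. The median Pearson correlation was 0.29 over 3240 pairs of members, 0.33 within a complex and 0.27 between complexes. It was 0.02 between the members and the other genes at their levels, and 0.015 among those. The points share libraries, so these correlations are a description of the libraries.

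**Figure D2:**
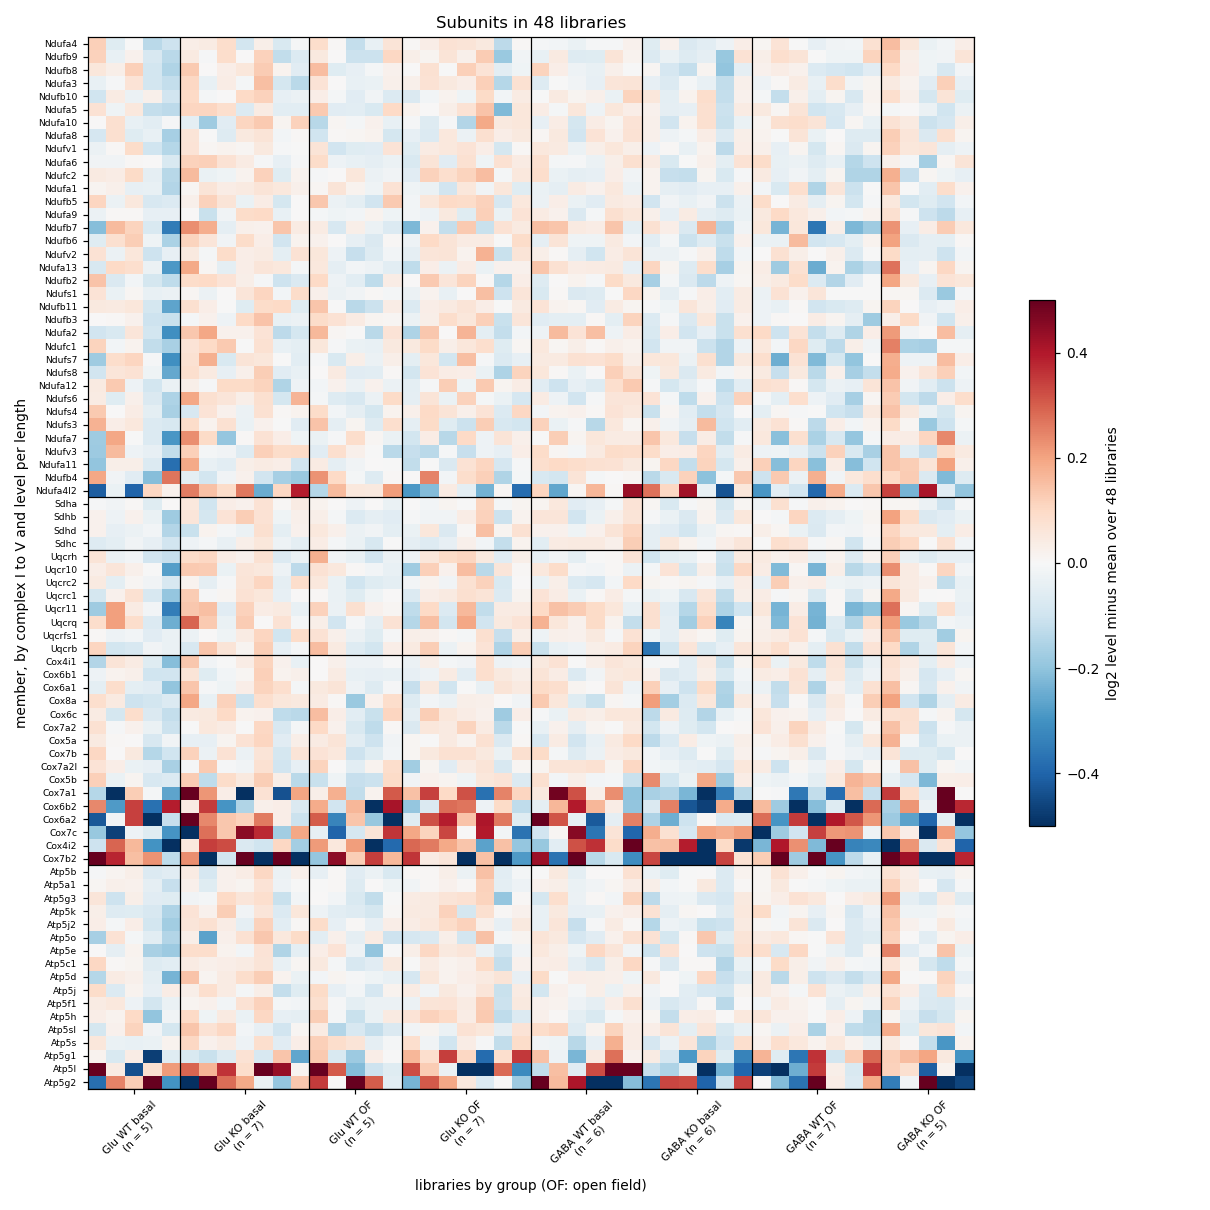
Log2 level of 80 of the 81 members (rows, by complex and level per length) in the 48 libraries (columns, by group) minus the mean of each member. Columns tend to be of 1 colour over many rows, and scarce members such as *Cox7b2* (36.6%) and *Atp5g2* (29.5%) have the highest coefficients of variation.

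Members differ in the GC content of their longest coding transcript, with a median of 51.5% and values of 57.95% in *Ndufa11* and 58.9% in *Uqcr11*. In each library, the levels of 14196 other genes were compared with this GC content, a check chosen after seeing the data. The rank correlation of GC content with a library's deviations ran from -0.47 to 0.44 over the 48 libraries. Its group medians were 0.33 in GABA-CB1-KO open field and -0.11 in GABA-CB1-WT open field, and lay between -0.17 and 0.09 in the other groups. Of the members, 22 lie at or above the upper quartile of GC content of the other genes (55.1%), and their values are given apart from those of the other members beside the comparisons.

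The sum of all 81 members was close in the 8 groups. In the basal state it was 8077 ± 307 CPM (SD, n = 5) in Glu-CB1-WT and 8351 ± 228 CPM (n = 7) in Glu-CB1-KO mice, and 8303 ± 176 CPM (n = 6) in GABA-CB1-WT and 8106 ± 213 CPM (n = 6) in GABA-CB1-KO mice. After the open field it was 8143 ± 171 (n = 5), 8296 ± 254 (n = 7), 8202 ± 163 (n = 7) and 8279 ± 345 CPM (n = 5) in the same order of groups. The ranges of KO and CB1-WT libraries overlapped in every line and state. The 5 Glu-CB1-WT basal libraries lay between 7642 and 8343 CPM and the 7 Glu-CB1-KO basal libraries between 8076 and 8711 CPM. The 6 GABA-CB1-WT basal libraries lay between 8037 and 8516 CPM and the 6 GABA-CB1-KO basal libraries between 7743 and 8312 CPM. Complex I summed to 2440 ± 75.5 CPM, complex II to 722 ± 19.3, complex III to 804 ± 28.3, complex IV to 1223 ± 41.9 and complex V to 3038 ± 89.9 CPM (SD, n = 48). Sums of CPM weight long and abundant messages and are compared only between libraries.

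**Figure D3:**
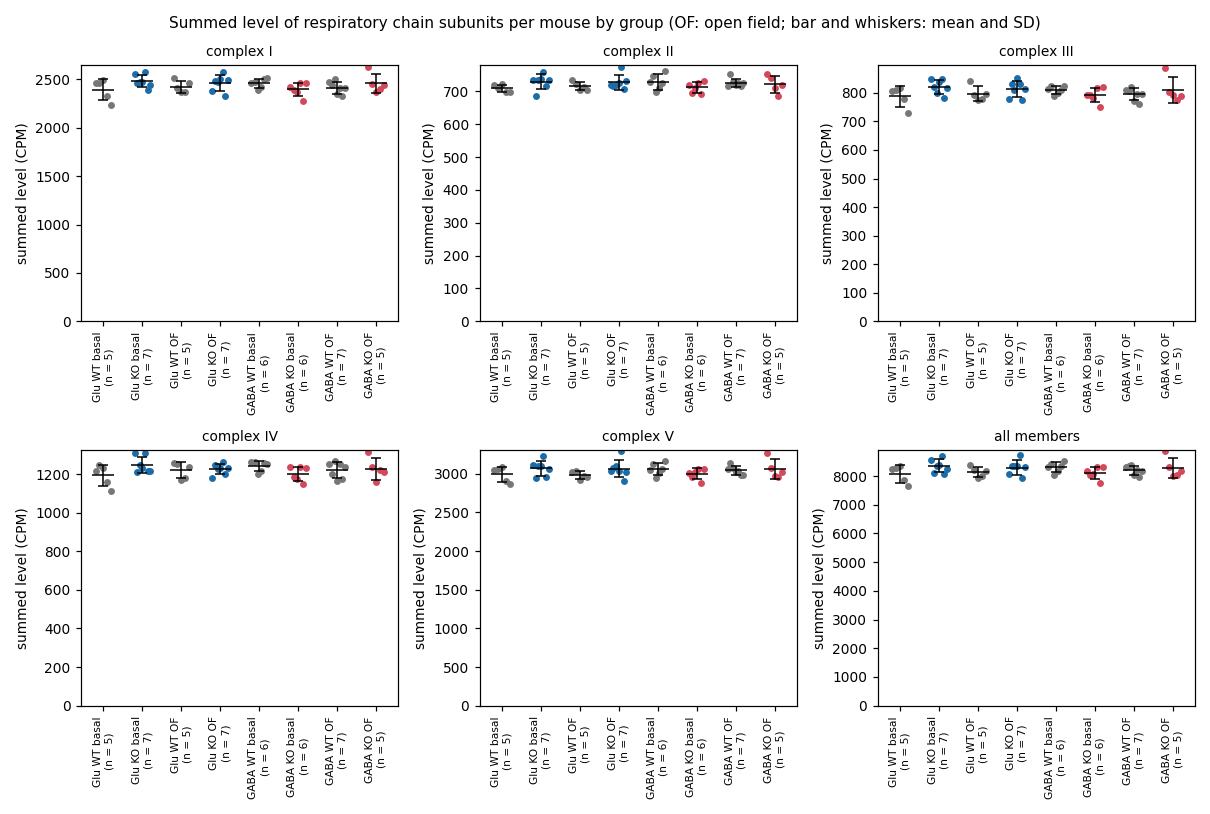
Summed level (CPM, axis from 0) of complexes I to V and of all members in each mouse by group; points are mice, bars and whiskers mean and SD. The 8 groups overlap in every panel, and all members sum to between 7642 and 8856 CPM.

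No member was called in any of 11 comparisons, by an adjusted p under 0.05 over all genes tested with edgeR's quasi-likelihood test or with DESeq2. This holds for 889 tests of a member in a comparison, of which 80 had an unadjusted p under 0.05 with edgeR. The share of all genes with such a p was between 2.47% and 14.6% in a comparison. The smallest adjusted p was 0.205 and the largest log2 fold change was 0.82. In each comparison, between 52 and 73 members had a 95% interval of the log2 fold change within ±0.25, so that changes larger than this lay outside the interval for most members. The counts of members are given beside the same counts over all genes, since members are not independent of each other.

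In basal Glu-CB1-KO mice, subunits of all 5 complexes were slightly higher than in CB1-WT littermates, none past the test. Of 81 members, 75 had a log2 fold change above 0 (49.5% of all 15138 genes had), with a median of 0.050 or 3.53%, and the median over all genes was -0.00091. This was 34 of 36 members in complex I, 4 of 4 in complex II, 8 of 8 in complex III, 14 of 16 in complex IV and 15 of 17 in complex V. No member was called, and 0.0198% of all genes were. An unadjusted p under 0.05 was found for 5 members, all higher, and for 3.57% of all genes. The smallest belonged to *Atp5d* and *Atp5k*, the delta subunit of ATP synthase and the small subunit e of its membrane part. *Atp5d* stood at 90.9, 103, 102, 96.9 and 85.3 CPM in the 5 CB1-WT mice and between 97.9 and 111 CPM (median 103) in the 7 Glu-CB1-KO mice. The groups overlap, and the log2 fold change was 0.12 ± 0.048 (SE, adjusted p = 0.999 with edgeR). *Atp5k* had a log2 fold change of 0.098 ± 0.041. GC-rich members had a median of 0.084 (19 of 22 above 0) and the others of 0.038 (56 of 59). The animal numbers of the labels fall in a lower and an upper range in each line, and the lower was more frequent in KO than in CB1-WT mice here. The median over members was 0.029, with 63 of 81 above 0, when the range of the animal numbers was a covariate, and 0.078 without the 14 libraries that stand apart (described last). It was 0.030 without Glu-CB1-WT basal replicate 5, which had the lowest sum of members of all libraries.

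In basal GABA-CB1-KO mice, most subunits were slightly lower than in CB1-WT littermates, again none past the test. Only 8 of 80 members had a log2 fold change above 0 (49.7% of all 15082 genes had), and the median was -0.042 or -2.88%. Lower were 35 of 36 members in complex I, 4 of 4 in complex II, 7 of 8 in complex III, 13 of 15 in complex IV and 13 of 17 in complex V. No member was called, and 0.245% of all genes were. An unadjusted p under 0.05 was found for 10 members, all lower, and for 8.16% of all genes. The smallest belonged to 2 members of low count, *Cox7a1* and *Atp5l*, a small membrane subunit (g) of ATP synthase. *Cox7a1* lay between 0.718 and 1.18 CPM (median 0.926) in the 6 CB1-WT mice and between 0.561 and 0.753 CPM (median 0.722) in the 6 GABA-CB1-KO mice. The highest KO library stood above the lowest CB1-WT library, and the log2 fold change was -0.45 ± 0.15 (SE, adjusted p = 0.418 with edgeR). *Atp5l* had a log2 fold change of -0.58 ± 0.20 at 0.477 ± 0.111 CPM (SD, n = 6) in CB1-WT and 0.321 ± 0.0466 CPM (SD, n = 6) in KO mice. *Sdhd*, a membrane anchor of complex II, had one of -0.069 (95% interval -0.13 to -0.010). GC-rich members had a median of -0.046 (1 of 22 above 0) and the others of -0.037 (7 of 58). All CB1-WT libraries here were numbered before all KO libraries, so that genotype and library number cannot be told apart. In the other comparisons of KO with CB1-WT littermates, the libraries of a genotype were also numbered mostly in runs. The lower range of animal numbers was less frequent in basal GABA-CB1-KO than in GABA-CB1-WT mice, the reverse of the basal Glu-CB1 line. With that range as a covariate, the median over members kept its sign in basal GABA-CB1-KO mice. The lowest median of any of 10 comparisons was then -0.037, and the value of this comparison alone is not given.

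The genotype effect of the basal state was therefore compared between the lines. The log2 fold change in the Glu-CB1 line exceeded that in the GABA-CB1 line for 76 of 81 members (49.8% of all 15390 genes), with a median difference of 0.092. This comparison uses the same libraries as the 2 before it and adds no independent mice, and the limits given for those apply here too. None was called, and 0.279% of all genes were, while 21 members, all with a higher fold change in the Glu-CB1 line, and 8.56% of all genes had an unadjusted p under 0.05. The smallest belonged to *Cox4i1* and *Ndufa2*. *Cox4i1* stood at 310 ± 25.4 and 331 ± 15.1 CPM in CB1-WT (SD, n = 5) and KO mice (SD, n = 7) of the Glu-CB1 line, and at 333 ± 6.00 and 319 ± 11.8 CPM in those of the GABA-CB1 line (SD, n = 6 each). The difference of the log2 fold changes was 0.16 ± 0.055 (SE, adjusted p = 0.379 with edgeR). For *Ndufa2*, a small accessory subunit of complex I, it was 0.22 ± 0.081. Other lists are given by their counts, with no gene called. The log2 fold change was higher in the Glu-CB1 line for 14 of 16 genes of glycolysis (median 0.087), 59 of 79 of the cytosolic ribosome (0.070), 62 of 77 of the mitochondrial ribosome (0.045), 4 of 5 of the other electron carriers (0.066), 12 of 17 of the tricarboxylic acid cycle (0.040) and 28 of 45 assembly factors (0.042). Of 19 regulators of mitochondrial biogenesis, 4 were higher (-0.035). GC-rich members had a median of 0.13 and the others of 0.084. With the GC relation of each library as a covariate, the median over all members was 0.082 and 76 of 81 were above 0, and without the 14 libraries that stand apart it was 0.12.

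**Figure D4:**
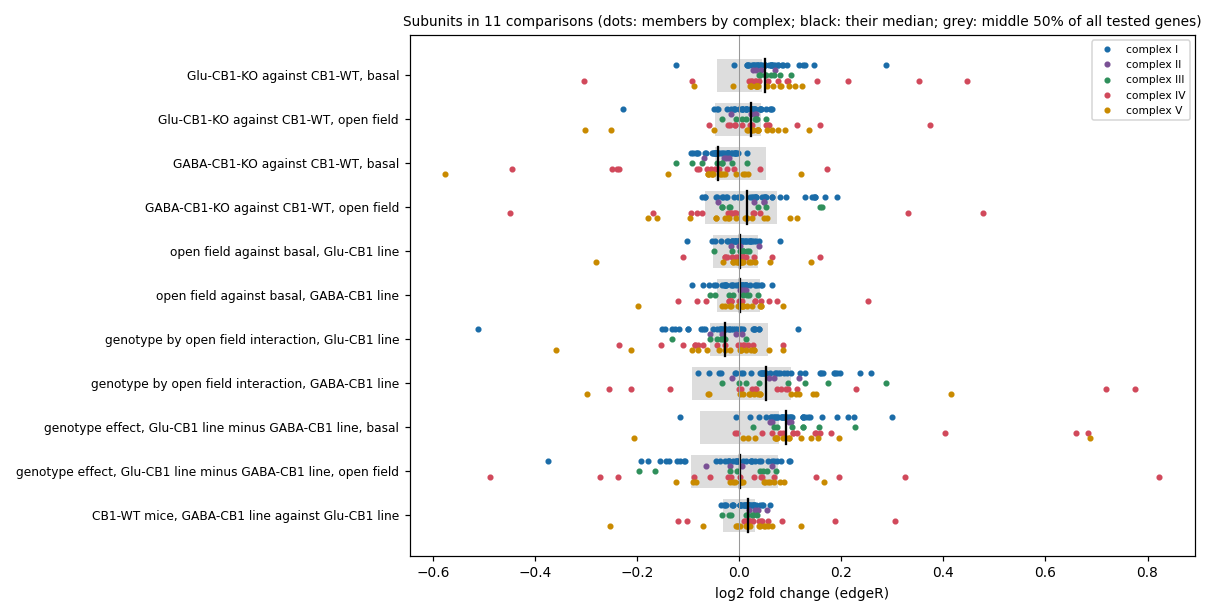
Log2 fold change (edgeR) of each member, coloured by complex, in the 11 comparisons; black bars are the members' medians and grey boxes the middle 50% of all tested genes. The members lie to the right in the first comparison and in the basal difference between lines, and to the left in basal GABA-CB1-KO mice. The members' median lies beyond the box in the first (0.0501 against 0.0446) and in the basal difference between lines (0.0915 against 0.0774).

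After the open field, the difference of the Glu-CB1-KO mice was smaller. Of 80 members, 59 were above 0 (48.4% of 15078 genes), with a median of 0.023. Calls among members were absent, beside 0.272% of all genes, and 1 member and 6.97% of all genes had an unadjusted p under 0.05. This was *Atp5sl*, a gene named after ATP synthase that encodes an assembly factor of complex I, with a log2 fold change of 0.090 ± 0.040 (SE). Next was *Atp5k* with 0.076 ± 0.038. GC-rich members had a median of 0.0016 (11 of 22 above 0) and the others of 0.028 (48 of 58). In GABA-CB1-KO mice after the open field, 45 of 81 members were above 0 (50.7% of 15097 genes), with a median of 0.016. By adjusted p no member passed, beside 0.0199% of all genes. An unadjusted p under 0.05 was found for 11 members, 10 of them higher, and for 13.2% of all genes.

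In that comparison the GC-rich members stood apart from the others. Of the 22 GC-rich members, 18 were above 0 (median 0.088), and of the 59 others 27 (median -0.0095). Of the 11 members with an unadjusted p under 0.05, 9 were GC-rich. *Uqcr10*, a small subunit of complex III, had the smallest p. It stood at 72.7, 63.8, 62.1, 66.7 and 61.4 CPM in the 5 KO mice and between 52.7 and 63.5 CPM (median 57.6) in the 7 CB1-WT mice. The groups overlap, and the log2 fold change was 0.16 ± 0.058 (SE, adjusted p = 0.294 with edgeR). *Ndufs8*, an iron-sulfur core subunit of complex I, had one of 0.13 ± 0.050. With the GC relation of each library as a covariate, 1 member had an unadjusted p under 0.05, and 40 of 81 were above 0. The shares of all genes were not counted in that fit. Without GABA-CB1-KO open field replicate 1, which had the highest sum of members of all libraries, the median over members was -0.011, and without the 14 libraries that stand apart it was 0.037.

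The difference between these genotype effects after the open field was near 0 for most members. The median of the Glu-CB1 effect minus the GABA-CB1 effect was 0.0021, with 41 of 81 above 0 (48.4% of 15325 genes). The test called no member, beside 0.568% of all genes, and 5 members and 10.8% of all genes had an unadjusted p under 0.05. The smallest belonged to *Cox6a2*, with a difference of 0.82 ± 0.27 (SE, adjusted p = 0.206 with edgeR), and to *Ndufa11*, an accessory subunit of complex I, with -0.18 ± 0.080. GC-rich members had a median of -0.12 (4 of 22 above 0) and the others of 0.029 (37 of 59). *Cox6a2* stood at 1.39, 0.878, 1.23, 0.974 and 0.538 CPM in the 5 Glu-CB1-WT mice and between 1.07 and 1.50 CPM (median 1.35) in the 7 Glu-CB1-KO mice. It lay between 0.760 and 1.49 CPM (median 1.37) in the 7 GABA-CB1-WT mice and at 0.977, 0.920, 0.837, 1.08 and 0.735 CPM in the 5 GABA-CB1-KO mice. KO and CB1-WT libraries overlap in both lines. *Cox6a2* is counted from 16 to 66 reads per library, and beside muscle it is known from parvalbumin interneurons.

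The summed level of 6 interneuron markers (*Gad1*, *Gad2*, *Slc32a1*, *Pvalb*, *Sst* and *Vip*, none at 0) differed between the same groups. After the open field it ran from 670 to 812 CPM in Glu-CB1-WT and from 804 to 901 CPM in Glu-CB1-KO mice, and from 790 to 835 CPM in GABA-CB1-WT and from 722 to 764 CPM in GABA-CB1-KO mice. Only the sum was compared between groups, and which of the 6 markers moved it was not tested. The paper lists *Sst* among the genes that changed in opposite directions in the mouse lines after the open field. Whether the sum follows *Sst* alone or the content of interneurons was not tested. Within groups, *Cox6a2* and *Pvalb* had a Pearson's r of 0.44 over the 48 mice. The part of the 6 markers in the group differences of *Cox6a2* was not tested. Markers of muscle, the other tissue that uses this copy, were *Acta1*, *Ckm*, *Myh1* and *Tnnt3*. They summed to between 3.25 and 5.54 CPM over all libraries. *Ckm* and *Tnnt3* stayed under 10 counts in each library, and *Acta1* and *Myh1* did not. Whether muscle RNA gave part of the *Cox6a2* reads was not tested.

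**Figure D5:**
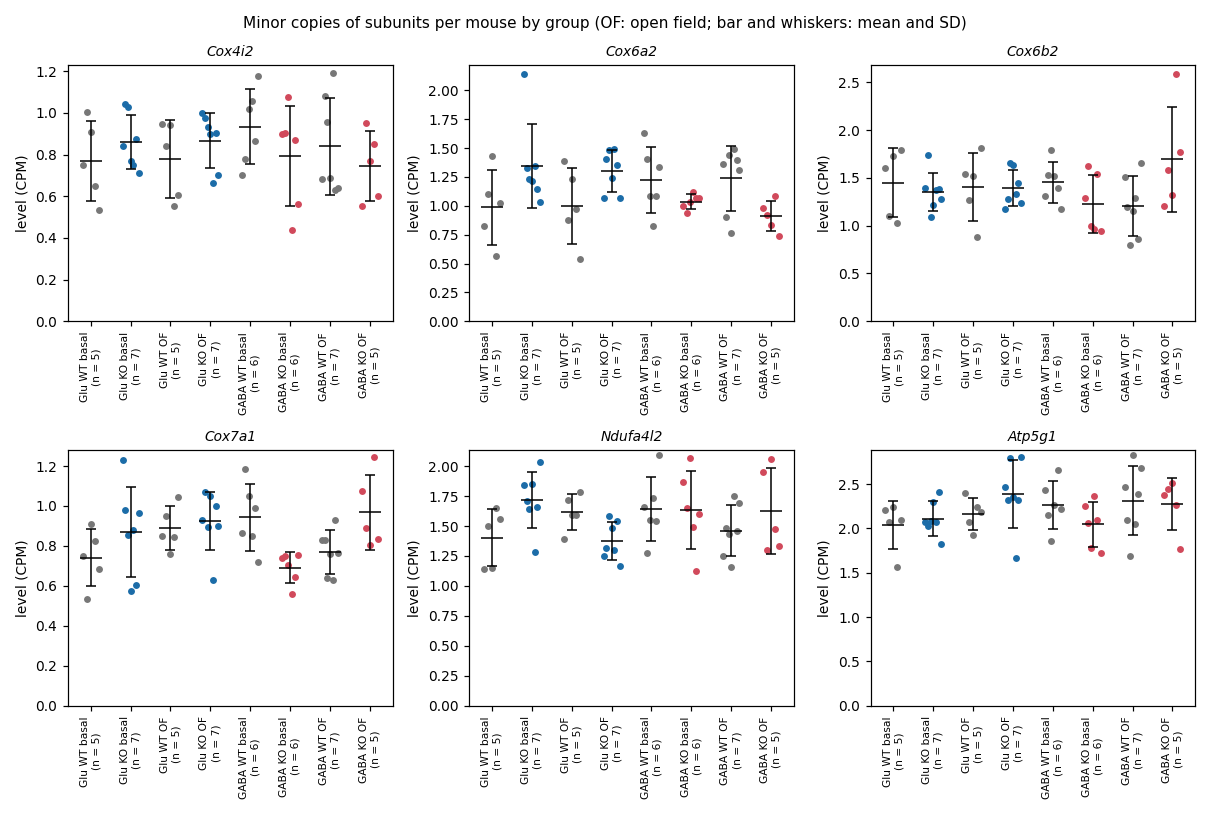
Level (CPM, axis from 0) of 6 copies of low count in each mouse by group. Points are mice, and bars and whiskers are mean and SD. *Cox6a2* is higher on average in KO mice of the Glu-CB1 line and lower in those of the GABA-CB1 line, with overlapping points, and *Cox7a1* is lowest in basal GABA-CB1-KO mice.

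Exposure to the open field left the members close to their basal level. In the Glu-CB1 line, 46 of 81 members were above 0 (46.8% of 15355 genes) with a median log2 fold change of 0.0019, and in the GABA-CB1 line 42 of 81 (49.6% of 15374 genes) with a median of 0.0015. None was called, beside 1.8% and 0.963% of all genes in the 2 lines. In the Glu-CB1 line no member had an unadjusted p under 0.05 with edgeR or DESeq2, compared with 13.9% of all genes. The smallest belonged to *Atp5g1*, a c-ring gene of low count (0.14 ± 0.079, SE), and *Atp5l* (-0.28 ± 0.17). In the GABA-CB1 line, 1 member and 12.1% of all genes had such a p. This was *Ndufb9*, an accessory subunit of complex I, with 0.064 ± 0.026, and next was *Ndufa4* with 0.042 ± 0.021. The 95% interval lay within ±0.25 for 73 and 71 members. In each line all basal libraries were numbered before all open field libraries, so that state and library number cannot be told apart. In the Glu-CB1 line 12 of 22 GC-rich members and 34 of 59 others were above 0, and in the GABA-CB1 line 5 of 22 (median -0.023) and 37 of 59 (median 0.0059). Over all 11 comparisons and 7 other lists, the only gene called with edgeR was *Mrpl57* of the mitochondrial ribosome, which was lower after the open field in the GABA-CB1 line.

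Whether the genotype changed the response to the open field was tested withwithin each line. For Glu-CB1 mice, 27 of 81 members were above 0 (50.7% of 15355 genes) with a median of -0.029. No member and 0% of all genes were called, and 2 members and 2.47% of all genes had an unadjusted p under 0.05. *Ndufa4l2*, a copy known for its induction in low oxygen, had the smallest. In the basal state it stood at 1.14, 1.50, 1.15, 1.65 and 1.56 CPM in CB1-WT mice and between 1.29 and 2.03 CPM (median 1.71) in the 7 KO mice. After the open field it stood at 1.39, 1.72, 1.596, 1.59 and 1.78 CPM in CB1-WT mice and between 1.17 and 1.59 CPM (median 1.31) in the 7 KO mice. KO mice were thus higher on average in the basal state and lower after the open field, with overlapping libraries, and the interaction was -0.51 ± 0.17 (SE, adjusted p = 1.00 with edgeR). Next was *Ndufa1*, an accessory subunit of complex I, with -0.12 ± 0.047. The median was -0.084 over GC-rich members (3 of 22 above 0) and -0.019 over the others (24 of 59).

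In the GABA-CB1 line, the interaction was above 0 for 65 of 81 members (51.4% of 15374 genes) with a median of 0.053. No member and 0% of all genes were called, and 19 members, all above 0, and 14.6% of all genes had an unadjusted p under 0.05. *Cox7a1* had the smallest, with 0.78 ± 0.21 (SE, adjusted p = 0.205 with edgeR). After the open field it stood at 1.08, 0.888, 0.803, 1.25 and 0.835 CPM in KO mice and between 0.628 and 0.930 CPM (median 0.766) in the 7 CB1-WT mice, the reverse of the order in the basal state. It is counted from 16 to 38 reads per library. *Uqcr11*, a small subunit of complex III, was next with 0.29 ± 0.088. It stood at 45.9 ± 2.07 and 42.05 ± 3.18 CPM in basal CB1-WT and KO mice (SD, n = 6 each), and at 40.2 ± 3.93 (SD, n = 7) and 45.1 ± 4.43 CPM (SD, n = 5) after the open field. GC-rich members made up 11 of the 19, with a median interaction of 0.12 over 22 members, compared with 0.040 over the 59 others. With the GC relation as a covariate, 4 members had an unadjusted p under 0.05, and 65 of 81 were above 0 with a median of 0.040. Here too the shares of all genes were not counted in the fit with the covariate. Genes of the cytosolic ribosome (57 of 79 above 0, median 0.084), the mitochondrial ribosome (62 of 77, 0.061) and glycolysis (13 of 16, 0.084) lay on the same side.

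The CB1-WT mice of both lines differed little. Of 81 members, 64 were above 0 in the GABA-CB1 line against the Glu-CB1 line (48.3% of 15350 genes), with a median of 0.018. No member and 0% of all genes were called, and 5 members and 3.86% of all genes had an unadjusted p under 0.05. The smallest belonged to *Sdhc* (0.055 ± 0.024, SE) and *Atp5g3* (0.057 ± 0.025). Without the 14 libraries that stand apart, 18 members had such a p, and the share of all genes was not counted in that fit. The median over members was then 0.043. It was 0.0091 without Glu-CB1-WT basal replicate 5 and 0.027 without Glu-CB1-WT open field replicate 1. GC-rich members had a median of 0.022 (17 of 22 above 0) and the others of 0.016 (47 of 59). Line and library number cannot be told apart, since the libraries of each line and state were numbered in a block.

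Depth ran from 25892654 to 34091080 counts per library. In 14 libraries, 500 variable genes that are no members gave a first principal component (20.9% of their variance) apart from the rest, and each of the 8 groups holds between 1 and 3 of them. All 14 libraries have animal numbers of the lower range of their line, which the genotypes hold unevenly in the basal groups. The members summed to between 8003 and 8561 CPM in these and to between 7642 and 8856 CPM in the other 34, and 61 of 81 members were higher in them, by a median of 0.027 on the log2 scale. Choroid plexus markers exceeded 200 CPM in 4 libraries of 4 groups. Dentate granule markers, a check of the dissection, summed to between 115 and 323 CPM and CA1 pyramidal markers to between 597 and 847 CPM. No member was called without these 14 libraries or without these 4.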

How the data were processed

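Hippocampal CA tissue of 48 male mice was sequenced, 1 library per mouse. Per the paper's methods and the labels, the authors amplified RNA with the NuGEN Ovation kit, read single ends on a HiSeq 2500, aligned to mm10 with STAR 2.6.0a and made gene counts, with strand taken into account, by featureCounts 1.6.2. The deposited values are raw counts for 24421 genes. Whether the kit keeps the strand is not given in the sources used here.

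Groups came from the labels. TMM factors, filterByExpr and edgeR's quasi-likelihood test (edgeR 4.0.16, R 4.3.3) were fitted on the counts of all genes, with Benjamini-Hochberg adjustment over all genes tested. A comparison within 1 line and state used its own libraries, and the others used the libraries of the groups they compare. TPM used the exon lengths of the table. DESeq2 1.42.0, RLE factors, other filters, 1 fit over all libraries, the animal number range, a replicate block and leaving out each replicate in turn were alternatives. In the 3 comparisons between lines, only replicates of groups of 5 were left out. The first principal component, the GC relation, and leaving out 14 or 4 libraries were added after seeing the data. Transcript GC content and shared windows were computed with Python 3.11.15.

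The members and lists were chosen with earlier results of these data known. Named genes are members with an adjusted p under 0.05, the 2 smallest p in each comparison, the highest and lowest level per complex, the copies of the paralogous families, complex II, and the highest and lowest coefficient of variation. *Cnr1* checks the labels. *Cox7c*, *Ndufa12*, *Ndufb4*, *Atp5h*, *Ndufs3*, *Ndufs5*, *Ndufa13*, *Atp5j*, *Uqcrc2*, *Atp5f1* and *Mrpl57* were named after their values were seen. Values of 1 of the genes so named are not reported here.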

Additional observations from a re-analysis of the deposited data

Results flagged for a closer look

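Libraries far from the others of their group were looked for by Dixon's test at its 95% critical value, in groups of 5 to 7, over the complex sums and the 38 named members. Of 352 tests, 18 (5.11%) found such a library, and chance gives about 1 in 20.

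Complex II summed to 775 CPM in Glu-CB1-KO open field replicate 5 (the others at most 733) and to 752 CPM in GABA-CB1-WT open field replicate 2 (at most 729). In the first of these, *Sdha* stood at 495 CPM, *Atp5b* at 1190 CPM, *Atp5g1* at 1.66 CPM and *Cox7a1* at 0.631 CPM, the first pair above and the last pair below the other 6 libraries. *Sdha* was low in Glu-CB1-KO basal replicate 2 (428 CPM, the others at least 459.98).

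Complex III summed to 889 CPM in GABA-CB1-KO open field replicate 1, the library with the highest sum of members, where *Uqcrh* (110.1 CPM), *Atp5k* (67.8 CPM) and *Cox5a* (102 CPM) were also high. It summed to 842 CPM in Glu-CB1-WT open field replicate 1, with *Uqcrh* at 115 CPM.

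*Atp5g3* (154 CPM) and *Ndufa4* (160.4 CPM) were low in Glu-CB1-KO open field replicate 6. *Atp5g1* was low in Glu-CB1-WT basal replicate 4 (1.56 CPM) and *Uqcr10* in Glu-CB1-WT basal replicate 5 (51.1 CPM), the library with the lowest sum of members. *Cox6a2* was high in Glu-CB1-KO basal replicate 1 (2.14 CPM, the others at most 1.35), 1 of the 14 libraries that stand apart.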

How the results depend on the processing

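No member was called under any alternative that was run, including 169 fits that leave out 1 replicate each. The animal number range was not run for the CB1-WT mice of both lines. The median over members kept its sign under the alternatives other than leaving out a replicate, except in GABA-CB1-KO open field (-0.000046 with the GC relation), the effect of the open field in the Glu-CB1 line (down to -0.0060) and the open field difference between lines (down to -0.0070). Leaving out 1 replicate gave medians from 0.030 to 0.064 in basal Glu-CB1-KO, 0.0084 (without Glu-CB1-WT open field replicate 4) to 0.036 after the open field, -0.050 to -0.027 (without GABA-CB1-KO basal replicate 5) in basal GABA-CB1-KO and -0.011 to 0.033 after the open field. The Glu-CB1 interaction ran from -0.047 to -0.0068 (without Glu-CB1-WT basal replicate 5) and the GABA-CB1 interaction from 0.040 to 0.073. The effect of the open field ran from -0.0091 to 0.0075 in the Glu-CB1 line and from -0.0095 to 0.0078 in the GABA-CB1 line. Between lines, where only replicates of groups of 5 were left out, the basal difference ran from 0.072 to 0.113, the open field difference from -0.015 to 0.026 and the CB1-WT difference from 0.0091 to 0.027. The cause was not tested. Level per length as TMM CPM per kilobase, another unit, had medians of 67.3, 80.98, 106.6, 67.9 and 108.4 in complexes I to V.

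Same-numbered mice were not alike as a rule: of 44 correlations, from -0.37 to 0.45, 12 exceeded 0.1. The labels name no litters, so that pairs of littermates could not be looked for. With the replicate block 0 members were called in each comparison, and medians ran from -0.042 to 0.097.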

Other observations

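Scarce copies were set beside a marker of the cells they are known from, as deviations from the group means over 48 mice. The 4 relations were chosen after values of these data were seen, so they are given as a description with no p-value. *Cox6a2* and *Pvalb*, the marker of parvalbumin interneurons, had a Pearson's r of 0.44 and a Spearman's rho of 0.34. Without the 2 libraries farthest in *Pvalb* r was 0.37, and it was 0.41 in 34 libraries and 0.45 in the 14 that stand apart. With *Rgs5*, a pericyte marker, r was -0.24 for *Cox4i2* (rho -0.25, r without the 2 farthest -0.29), -0.12 for *Ndufa4l2* (rho -0.14, r -0.067) and -0.23 for *Cox7a1* (rho -0.22, r -0.17). All points share libraries.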
